A study of Mus musculus with 56 samples.

Results

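Complex I of the mitochondrial respiratory chain is built from subunits of nuclear and of mitochondrial origin, and the genes described here are the nuclear ones. They were taken as the protein-coding rows of the count table whose mouse symbol starts with Ndufa, Ndufb, Ndufc, Ndufs or Ndufv followed by a number, which leaves out the Ndufaf assembly factors. Described here are 36 of the 57010 genes counted, and they held 1.68% of all gene counts. Another 4 matching rows are not protein-coding in the annotation used and were set aside, among them Ndufb1-ps with 134090 counts. By known structure 15 members sit in the hydrophilic arm (6 core and 9 accessory subunits) and 19 in the membrane arm. The remaining 2 carry the name only. Ndufa4 is now placed in cytochrome c oxidase, and Ndufa4l2 is its hypoxia-induced paralog.

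The study compared mouse gastrocnemius, a calf muscle, with and without HuR, the RNA-binding protein encoded by Elavl1. The groups were HuR knockout females, control females, HuR knockout males and control males, 7 mice each, aged 20 to 22 weeks. All mice, controls included, expressed the ribosomal protein L10A with a GFP tag, switched on by Cre recombinase from the Mlc1f promoter, and the knockouts also carried floxed Elavl1. The Mlc1f promoter acts in muscle fibres, so the other cells of the muscle are outside the deletion. Each mouse gave a library of ribosomal RNA, meaning RNA isolated with the tagged ribosomes, and a library of total RNA from the whole homogenate.

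Complex I takes electrons from NADH and passes them through a flavin and a chain of iron-sulfur clusters to ubiquinone, pumping protons as it does so. The core subunits of the hydrophilic arm carry these centres, the proton channels of the membrane arm are encoded in mitochondrial DNA, and the accessory subunits surround and stabilise both. Muscle fibres hold large amounts of the complex, and HuR is known for binding AU-rich and U-rich stretches in mRNAs and changing their stability or translation.

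Ribosomal libraries held 0.16 to 3.58 M gene counts (M for mega; median 1.62 M) and total libraries 2.43 to 5.85 M (median 3.56 M). Ribosomal depth differed between groups, with medians of 0.937 M in knockout females, 1.59 M in control females, 1.86 M in knockout males and 2 M in control males. Libraries under 0.75 M counts were those of female knockouts 2, 6 and 12, female controls 18 and 19, male knockout 2 and male control 20. Elavl1 itself did not pass the test in any of the 4 knockout comparisons (log2 fold change 0.27 and 0.29 in ribosomal RNA of females and males, −0.01 and −0.14 in total RNA). The counts are 3′ tags and the labels do not say which exons are deleted, so these values check nothing. Levels are given as CPM, normalised counts per M counts, on TMM-scaled library sizes. They count transcripts' 3′ ends, and no order between genes is drawn from them. In whole-muscle RNA fewer cells of a type and less RNA per cell cannot be told apart.

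The members are short transcripts. Their median mRNA length was 812 bases and their median 3′ UTR 130.5 bases, against 3002 and 1012 bases over 11377 tested protein-coding genes (GENCODE M21). RefSeq (GRCm38.p6) gave a promoter stretch, from 250 bases before to 50 after the annotated start, for 32 members. The letters AAGATGGC, a form of the YY1 motif, stood in 7 of these (21.9%), against 3.28% of 16500 promoters of protein-coding genes searched the same way on both strands. In all 7 the ATG within these letters was an annotated start codon. The stretches are shown because, of the promoter motifs searched, this one differed most in share between members and other genes. Capitals mark the 8 searched letters, and each sequence is read on the gene's own strand.

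Ndufa3, chr7:3617384-3617413, plus strand: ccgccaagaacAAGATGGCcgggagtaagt
Ndufa9, chr6:126849097-126849126, minus strand: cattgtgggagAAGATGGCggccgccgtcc
Ndufb8, chr19:44555393-44555415, minus strand: cggagaaggtgAAGATGGCtgcc
Ndufc1, chr3:51408915-51408944, minus strand: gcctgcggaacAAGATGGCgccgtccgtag
Ndufs4, chr13:114388045-114388070, minus strand: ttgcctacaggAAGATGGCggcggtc
Ndufs6, chr13:73328433-73328460, minus strand: gggtcaccggcAAGATGGCggcggtgct
Ndufs7, chr10:80249462-80249491, plus strand: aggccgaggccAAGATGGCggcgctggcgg

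The motif began 23 to 39 bases after the annotated start in these genes. Other motifs were near their share among all promoters or held by few members. CCGGAAG, an ETS motif, stood in 4 of 32 member promoters (12.5%) and in 12.3% of all. CGCATGCG, the centre of the NRF1 motif, stood in 2 (6.25%, Ndufa8 and Ndufa11) against 2.66% of all, and TNAAGGTCA, an ERR motif, in 1 (3.12%, Ndufb4) against 1.06%. None of the 7 genes with AAGATGGC was called in the knockout comparisons as tested below, but some were called lower in ribosomal RNA under other settings. Without the filter on low counts these were Ndufc1 in females and Ndufa3 and Ndufs6 in males. With depth as a covariate they were Ndufc1 in both sexes and Ndufa3, Ndufs4 and Ndufs6 in males. A match describes the letters in the window and is no evidence of binding.

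Because HuR is known for AU-rich binding, the pentamer ATTTA was searched on the sense strand of 3′ UTRs. Among the 23 members whose 3′ UTR has at least 100 bases, 6 (26.1%) held ATTTA in the last 100 bases, against 22.9% of 10803 genes. The U-rich heptamer TTTATTT, which can overlap ATTTA, stood in the last 100 bases of 1 member (4.35%), against 7.03% of genes. Anywhere in the 3′ UTR, ATTTA stood in 14 of the 36 members (38.9%), against 67.2% of 11377 genes, whose median 3′ UTR is longer. Of the members called in a knockout comparison below, Ndufa8, Ndufa10 and Ndufa6 held it, and Ndufa1, Ndufa13, Ndufb2, Ndufb3, Ndufc2 and Ndufs8 did not. Ndufa10 and Ndufa8, which fell in ribosomal RNA of knockout females, and Ndufa6, which rose in total RNA of knockout males, are shown with the pentamer in capitals.

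Ndufa10, chr1:92439033-92439057, GRCm38, minus strand: tgtaacttgcATTTAacttaattaa
Ndufa8, chr2:36036371-36036395, GRCm38, minus strand: aaaaaagttaATTTAtgtgacttgg
Ndufa6, chr15:82350196-82350220, GRCm38, minus strand: gcatgttaatATTTAactagagtat

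Ribosomal RNA was set against total RNA, which asks how the fibre's ribosome-bound share of each mRNA compares with the whole muscle. Most complex I mRNAs were higher in ribosomal RNA. In knockouts 31 of 36 members were higher and 2 lower, where 31.9% of 12546 tested genes were higher and 44% lower. In controls 33 members were higher and 1 lower, where 35.2% of genes were higher and 43.1% lower. The members' median log2 fold change was 0.87 in knockouts and 1.14 in controls, against −0.17 and −0.10 over all tested genes. RLE scaling moved the median of all genes by more than 0.1, to −0.36 in knockouts and −0.33 in controls, and that of the members to 0.69 and 0.93. Under RLE 26 members were higher and 3 lower in knockouts, and 31 higher and 1 lower in controls.

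By role the values overlapped, and a difference between roles was not tested. The 9 accessory subunits of the hydrophilic arm were all higher in ribosomal RNA in both genotypes, with a median of 1.12 in knockouts and 1.42 in controls. The 19 membrane-arm subunits had medians of 0.91 and 1.23, with 17 higher in knockouts and 18 in controls. The 6 core subunits had medians of 0.60 and 0.74, with 4 higher and 1 lower in knockouts and 5 higher in controls.

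Ndufb3, a membrane-arm subunit, had the largest ratio. It ranged from 1022 to 2625 CPM (median 1595) in ribosomal RNA and from 324.3 to 490.9 CPM (median 373.6) in total RNA of the 14 knockouts. In the 14 controls it ranged from 847.9 to 2712 CPM (median 1377) in ribosomal RNA and from 228.9 to 378.5 CPM (median 330.2) in total RNA. No ribosomal library overlapped a total one, and the log2 fold change was 2.11 (SE 0.113, adjusted p = 1.41e-24) in knockouts and 2.15 (SE 0.113, adjusted p = 2.51e-25) in controls. Ndufa5, an accessory subunit of the hydrophilic arm, followed with 1.96 and 2.09.

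Core subunits ranged widely. Ndufs3, a scaffold of the ubiquinone module, was higher in ribosomal RNA by 1.45 in knockouts and 1.46 in controls, and Ndufs7, which carries the cluster next to ubiquinone, by 1.23 and 1.39. Ndufs1, which carries several iron-sulfur clusters, ranged from 211.4 to 304.4 CPM in ribosomal and 187.7 to 289.2 CPM in total RNA of knockouts, so the RNA types overlapped. Its log2 fold change was 0.07 (adjusted p = 0.331) in knockouts and 0.17 (adjusted p = 0.0132) in controls, and in controls it turned to −0.04 under RLE scaling. Ndufs8, an iron-sulfur subunit, was lower in ribosomal RNA of knockouts (−0.25, adjusted p = 0.0402) and stood at 0.13 (adjusted p = 0.255) in controls. Without the ribosomal libraries under 0.75 M counts it did not pass in knockouts (−0.24, adjusted p = 0.0567) and was called higher in controls.

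The gene whose ribosomal level was lowest relative to total was Ndufa4l2, at −2.85 (adjusted p = 1.58e-07) in knockouts and −1.49 (adjusted p = 1.47e-05) in controls. It had only 636 counts over the 56 libraries, so its values rest on few reads. On the scale common to both RNA types it reached at most 8.2 CPM in any library. The respiratory chain's other nuclear genes moved the same way as the members, with 29 of 41 subunit genes of complexes II to V higher in knockouts (2 lower) and 39 of 41 in controls (1 lower). Complex I genes of mitochondrial DNA, which are translated inside the organelle, were lower in ribosomal RNA, 6 of 6 tested in each genotype, with medians of −2.17 in knockouts and −2.99 in controls. Markers of non-fibre cells were lower too, among them 8 of 8 endothelial and 10 of 10 fibroblast and matrix genes in each genotype.

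**Figure D1:**
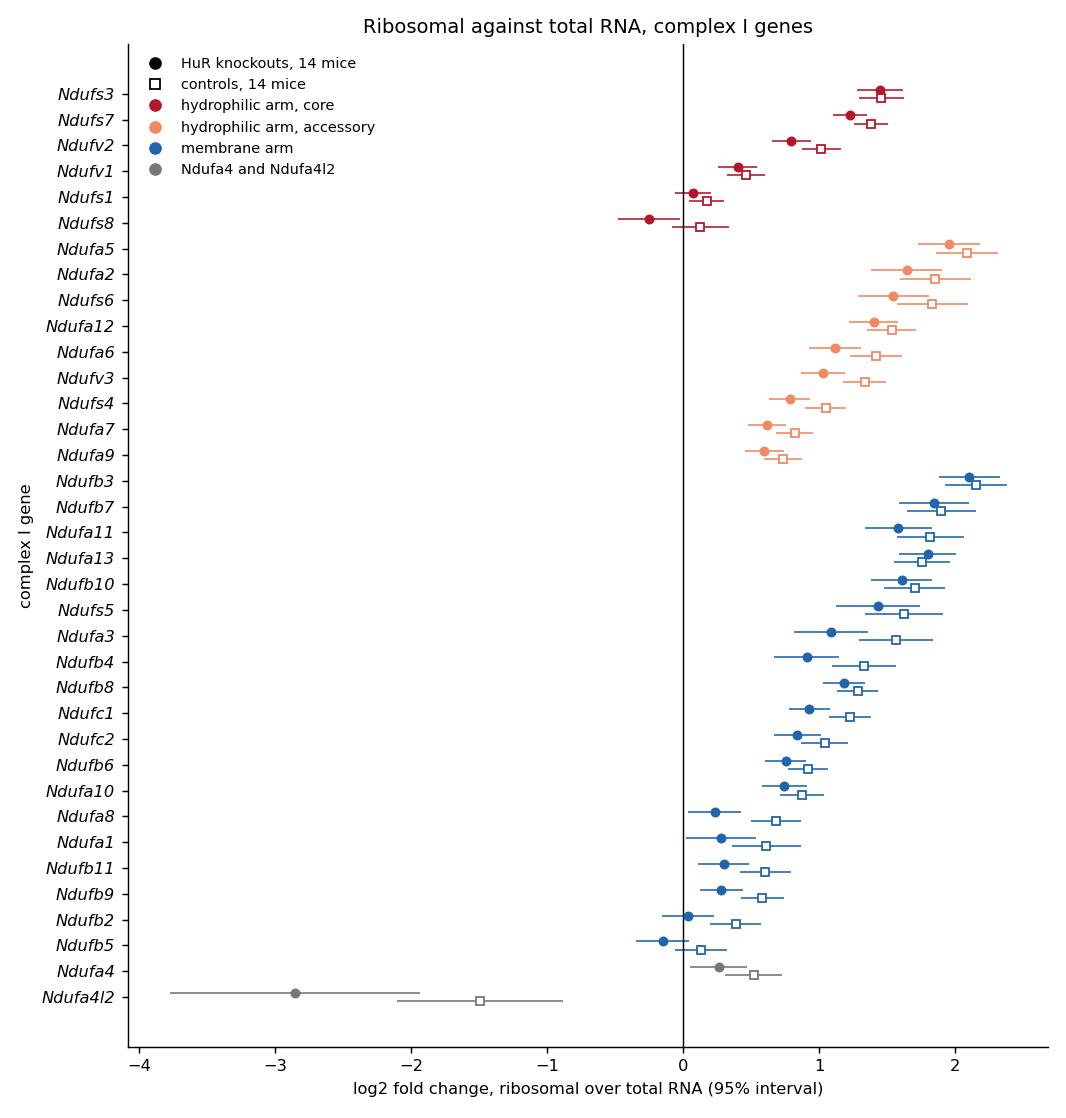
Log2 fold change of ribosomal over total RNA for 36 complex I genes (x axis, points with 95% intervals), ordered by role, in HuR knockouts (filled circles) and controls (open squares), 14 mice each. Most points lie right of 0, the accessory subunits of the hydrophilic arm all do, and the core subunits Ndufs1 and Ndufs8 lie near 0.

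Within groups most members varied together. For each library the deviation of log2 CPM from its group mean was taken, and members were correlated over the 28 libraries of an RNA type. The libraries share mice, depth and composition, so these values are descriptions. In total RNA the median Pearson's r between members was 0.473, and 90.8% of pairs were positive. Over the 7278 genes at or above the level of the lowest member, Ndufa4l2 aside, the median was 0.002. Beyond this floor these genes were not matched to the members in level. In ribosomal RNA the median between members was 0.435, against 0.017 over genes taken the same way, but only 67.7% of pairs of members were positive.

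On ribosomal values the members were divided into a set of 25 and a set of 10. The cut was a mean r with the other members above or below 0.2, a boundary chosen after the values were seen. Ndufb2 (0.16) and Ndufb9 (0.289) stood nearest to it on either side. Within the set of 10 the median r was 0.683 and within the set of 25 it was 0.762, while between the sets it was −0.284. Spearman's rho gave 0.623, 0.746 and −0.172. The sets were cut from these same libraries, so lower values between than within them follow in part from the cut. In total RNA, which was not used for the cut, the same sets had medians of 0.546, 0.471 and 0.503, with no such division. Without the 7 ribosomal libraries under 0.75 M counts, the median between the sets was 0.213 and no longer negative. Those within the sets were 0.696 and 0.771, and the part of depth was not tested.

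The set of 10 holds the core subunits Ndufs8 and Ndufv1, of which Ndufv1 binds NADH, the hydrophilic-arm subunit Ndufa9, the membrane-arm subunits Ndufa1, Ndufa8, Ndufa10, Ndufb2, Ndufb5 and Ndufb11, and Ndufa4. Their median mRNA length was 945.5 bases, against 732 in the set of 25. Their ribosomal-to-total log2 fold changes had a median of 0.27 in knockouts and 0.56 in controls, against 1.19 and 1.42 in the set of 25. The summed CPM of the set of 25 over that of the set of 10 was 7.72 to 12.8 (median 11.35) in ribosomal libraries of knockout females and 3.94 to 13.95 (median 6.86) in those of control females. It was 3.66 to 5.07 in knockout males and 3.83 to 12.96 in control males, where male control 20 alone gave 12.96 and the others 6.01 at most. In the 28 total libraries it stayed between 2.91 and 3.62. Of the 7 shallow ribosomal libraries, 6 gave 11.35 or more and male knockout 2, the shallowest, gave 4.97.

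**Figure D2:**
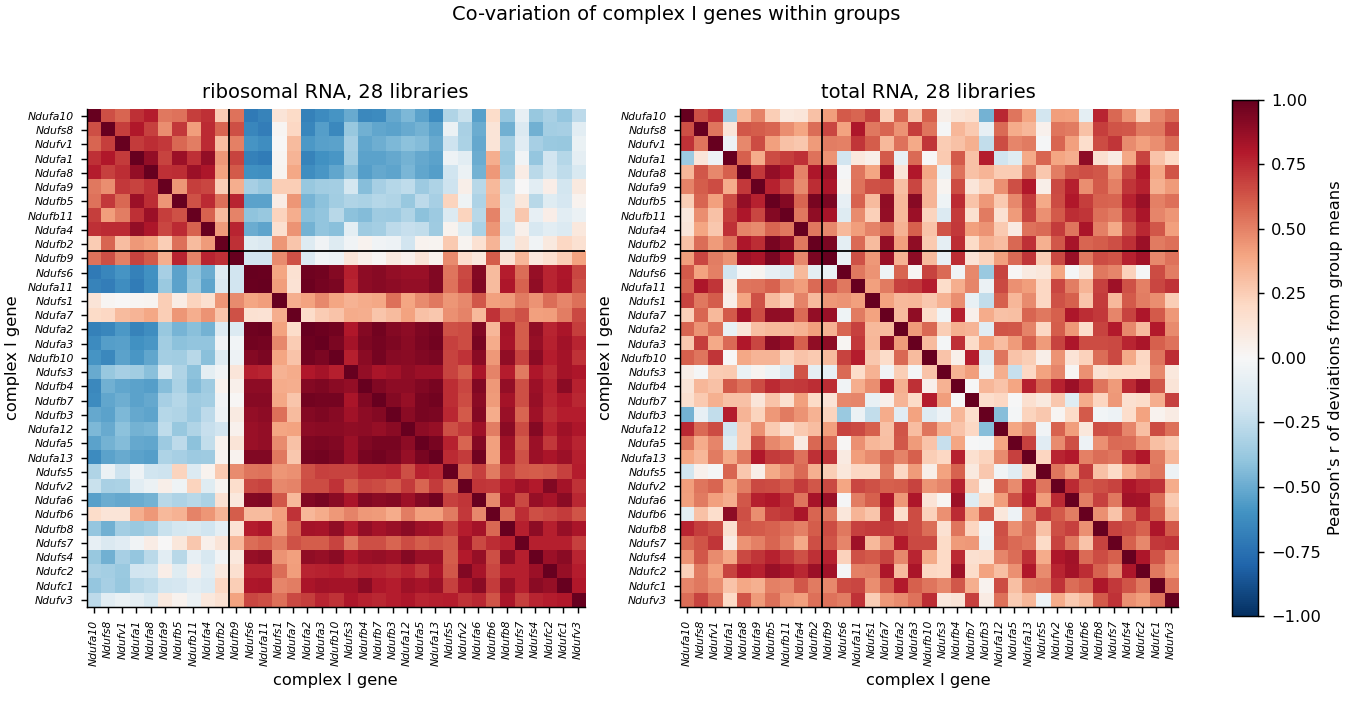
Pearson's r between complex I genes, computed on deviations of log2 CPM from group means, in 28 ribosomal libraries (left) and 28 total libraries (right); black lines separate the set of 10 from the set of 25. Ribosomal libraries show positive blocks within each set and mostly negative values between them (median −0.284), and total libraries show positive values throughout most of the matrix (median 0.503 between the sets). The sets were cut on the ribosomal values shown, so their blocks follow in part from the cut.

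**Figure D3:**
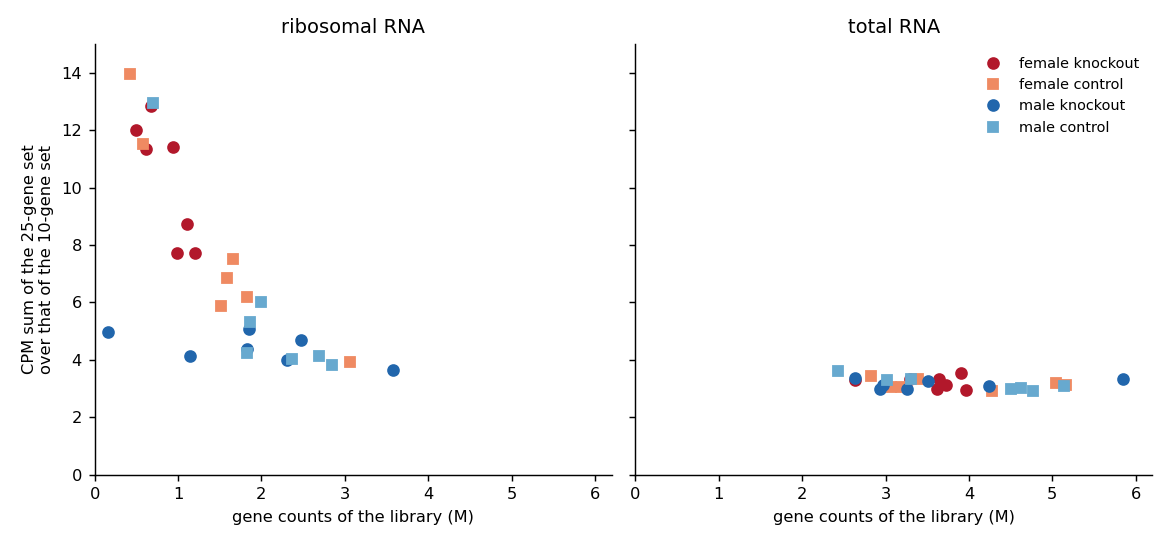
Summed CPM of the 25-gene set over that of the 10-gene set (y axis) against the library's gene counts in M (x axis), for ribosomal and total libraries; each point is 1 library, colored by sex and genotype. Ratios of 7.72 and above were those of the 7 knockout females, female controls 18 and 19 and male control 20, and total libraries lay between 2.91 and 3.62 at every depth.

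HuR knockout was compared with control in ribosomal RNA, which asks whether fibre ribosomes hold other amounts of these mRNAs without HuR. In females 5 members fell and 1 rose, and in males none of those described was called. In females 6 of 35 tested members passed the test, where 16.8% of 9098 genes did. Of these 1 rose, where 8.44% of genes did, and 5 fell, where 8.41% did. In males 0 of 35 passed, where 8.96% of genes did (4.87% fell and 4.09% rose). With edgeR 5 members had an unadjusted p under 0.05, where 22.8% of genes did, and DESeq2 called no member. The values were above 0 for 15 of 35 members in females (48.5% of all genes) and for 9 of 35 in males (49.2% of all genes). In no member were knockouts and controls fully apart, where 2.56% of genes in females and 2.57% in males were. Ndufa4l2 failed the filter on low counts in ribosomal RNA and was not tested there.

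The members that fell in ribosomal RNA of knockout females all belong to the set of 10. That set was cut from the same libraries that gave these calls, so the overlap is a description and supports nothing. Ndufa8, a membrane-arm subunit, ranged from 83.47 to 115.7 CPM (median 101.9) in knockouts and from 104.1 to 188.2 CPM (median 162.7) in controls. Its groups overlapped only narrowly, with 5 of 7 knockouts below every control, and the log2 fold change was −0.64 (SE 0.152, adjusted p = 0.00333). Ndufs8 ranged from 35.28 to 61.84 CPM in knockouts and from 49.85 to 113.4 CPM in controls (−0.66, SE 0.201, adjusted p = 0.0212). Ndufb2 in the membrane arm ranged from 252.1 to 333.7 CPM in knockouts and from 301.4 to 589 CPM in controls (−0.52, SE 0.154, adjusted p = 0.0165).

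Ndufa10, a membrane-arm subunit with a nucleoside kinase fold, ranged from 225.2 to 301.3 CPM in knockout females and from 269.8 to 368.5 CPM in control females (−0.40, SE 0.123, adjusted p = 0.0219). Ndufa1 of the membrane arm ranged from 181.5 to 345.4 CPM in knockouts and from 227.2 to 567 CPM in controls (−0.55, SE 0.196, adjusted p = 0.0471). Each of these ranges overlapped between genotypes. Ndufa4 stood at −0.41 (adjusted p = 0.056) in females and 0.21 (adjusted p = 0.423) in males, and Ndufb4, a membrane-arm subunit with near-copies in the genome, at −0.29 (adjusted p = 0.353) and −0.30 (adjusted p = 0.411). The other core subunits did not pass the test in either sex, with log2 fold changes between −0.27 and 0.10. Ndufa13, also known as GRIM-19, was the member that rose. It ranged from 1219 to 2326 CPM (median 2033) in knockouts and from 830.9 to 2096 CPM (median 1079) in controls (0.57, SE 0.192, adjusted p = 0.0382), with 2 of 7 knockouts above every control.

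Which members passed depended on the libraries and the fit. Without female control 15, the deepest of its group, 2 members were called and Ndufb2 (adjusted p = 0.0677), Ndufs8 (adjusted p = 0.0998), Ndufa1 and Ndufa13 were not among them; without female control 18 or 19 it was 8. With log2 depth as a covariate Ndufa1 (−0.39, adjusted p = 0.163), Ndufa10 (−0.33, adjusted p = 0.0605) and Ndufs8 (−0.49, adjusted p = 0.113) kept their direction without passing and Ndufb4 and Ndufc1 were called lower, while in males 6 members were called, Ndufa1 higher and 5 lower; this alternative was chosen after seeing the data. Ribosomal libraries of knockout females held higher sums of other lists than those of control females. Fibroblast and matrix genes summed to 360.5 to 1161 CPM in knockouts and 187.3 to 315.7 in controls, and 8 of 9 tested genes rose. Endothelial genes summed to 86.35 to 351.2 CPM in knockouts and 64.35 to 132.9 in controls, and 6 of 6 rose; no gene of either list was at 0. Erythroid genes summed to 277.5 to 1082 CPM in knockouts and 126.6 to 249.6 in controls, and 5 of 5 rose. Slow-fibre genes summed to 5638 to 11340 CPM in knockouts and 3420 to 6490 in controls, and 9 of 10 rose, with the lowest p for Myh7 (2.03), the slow myosin heavy chain, Tnnc1 (1.01) and Tpm3 (0.88). Of 12 fast-fibre genes 4 rose, with sums of 122100 to 215200 CPM in knockouts and 68190 to 237200 in controls. In ribosomal RNA of males, the 5 erythroid genes rose too (0.87 to 1.46), and of the slow-fibre genes only Tpm3, Tnnc1 and Tnni1 did. No fibroblast, matrix or endothelial gene passed the test there. The part of depth, of these cells and of fibre type in the members' changes was not tested.

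**Figure D4:**
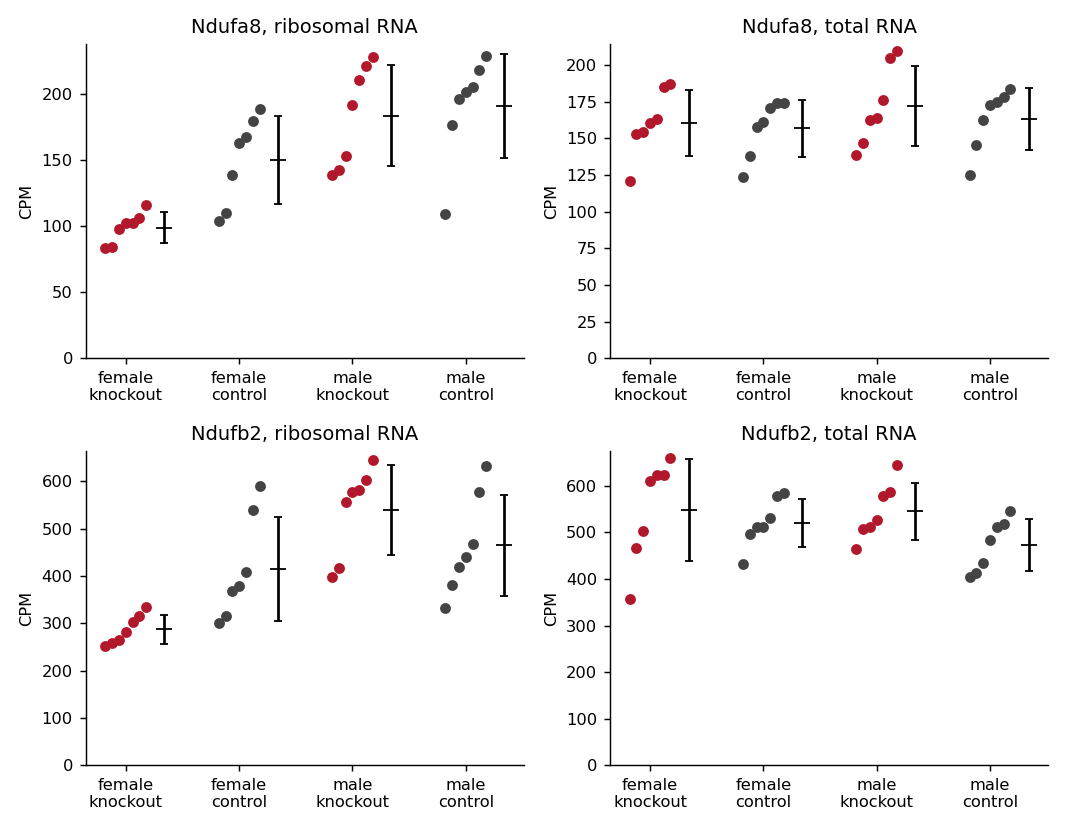
CPM of Ndufa8 (top) and Ndufb2 (bottom) in ribosomal (left) and total RNA (right), 7 libraries a group; points are libraries, and the bars beside them are mean ± SD. Ribosomal libraries of knockout females lie low, at 83.47 to 115.7 CPM for Ndufa8 and 252.1 to 333.7 CPM for Ndufb2, and the groups overlap in total RNA.

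Among the partners of these subunits, the 5 tested complex I genes of mitochondrial DNA all rose in ribosomal RNA of knockout females, with a median of 1.99 and mt-Nd5 highest at 2.50 (adjusted p = 0.000837). Their summed level was 4044 to 19240 CPM in knockouts and 1054 to 5238 in controls. Of all tested genes 8.44% rose in this comparison. These 5 mRNAs are translated inside the organelle, so their values do not measure loading of the tagged ribosomes. The part of depth and of RNA from outside the tagged ribosomes was not tested. In males none of the 5 passed the test, nor did any of 41 subunit genes of complexes II to V. In females 8 of those 41 fell, and none rose; Atp5c1 of ATP synthase (−0.57, adjusted p = 0.0014), Sdhc of complex II (−0.56, adjusted p = 0.00211) and Cox7b of complex IV (−0.66, adjusted p = 0.00318) had the lowest p. Of 17 tested assembly genes Ndufaf5, a methyltransferase-like assembly factor, rose in females (0.89) and males (0.89). Acad9 and Dmac2 fell in females and Timmdc1 in males.

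In total RNA the knockout changed few members. In females no member of 36 passed the test, where 8.49% of 12860 genes did. With edgeR 2 members had an unadjusted p under 0.05, where 23.6% of genes did, and DESeq2 called no member. The values were above 0 for 26 of 36 members in females (52.3% of all genes) and 25 of 36 in males (50.2% of all genes). In no member were knockouts and controls fully apart, where 2.59% of genes in females and 2.12% in males were. In males 3 members rose and none fell, where 14.2% of genes were called and 6.83% rose. Ndufc2, a membrane-arm subunit, ranged from 346.2 to 502.1 CPM (median 399.3) in knockout males and from 245.7 to 360.6 CPM (median 316.2) in control males, with 6 of 7 knockouts above every control (0.39, SE 0.106, adjusted p = 0.0154). Ndufb3 ranged from 391.9 to 468.8 CPM in knockouts and from 279.3 to 397.3 CPM in controls (0.27, SE 0.0815, adjusted p = 0.0269). Ndufa6, which holds an acyl carrier protein on the hydrophilic arm, ranged from 682.8 to 960.4 CPM in knockouts and from 555.8 to 699.3 CPM in controls (0.28, SE 0.0908, adjusted p = 0.0393). Both overlapped their controls at the edge. Without the libraries in which more than 19% of the reads lay outside genes, among them male controls 25, 26 and 27, fewer libraries remained and none of the 3 passed, at 0.30 for Ndufc2 (adjusted p = 0.0905), 0.18 for Ndufb3 (adjusted p = 0.259) and 0.20 for Ndufa6 (adjusted p = 0.256).

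Of the partner genes in total RNA, Ndufaf5 rose (1.26 in females, 1.12 in males) and Dmac2 fell (−0.40 and −0.31) in both sexes. In males mt-Nd5 (0.59) and mt-Nd6 (0.51) rose as well, as did 5 of 41 genes of complexes II to V, while Atp5l of ATP synthase fell (−0.74, adjusted p = 0.00311); in females none of the 41 passed. Fibroblast and matrix genes rose in total RNA too, 7 of 10 in females and 9 of 10 in males, with sums of 3585 to 5191 CPM in knockout males and 2245 to 3696 CPM in control males. Their part in the members' values was not tested.

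With the total libraries of female knockouts 5, 6 and 12 left out, Ndufs1 (−0.31, adjusted p = 0.0382), Ndufa10 (−0.37, adjusted p = 0.0101) and Ndufv1 (−0.27, adjusted p = 0.0483) were called lower in females. Those libraries were set apart by values of knockout-responsive genes, so this count is a description and supports nothing.

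**Figure D5:**
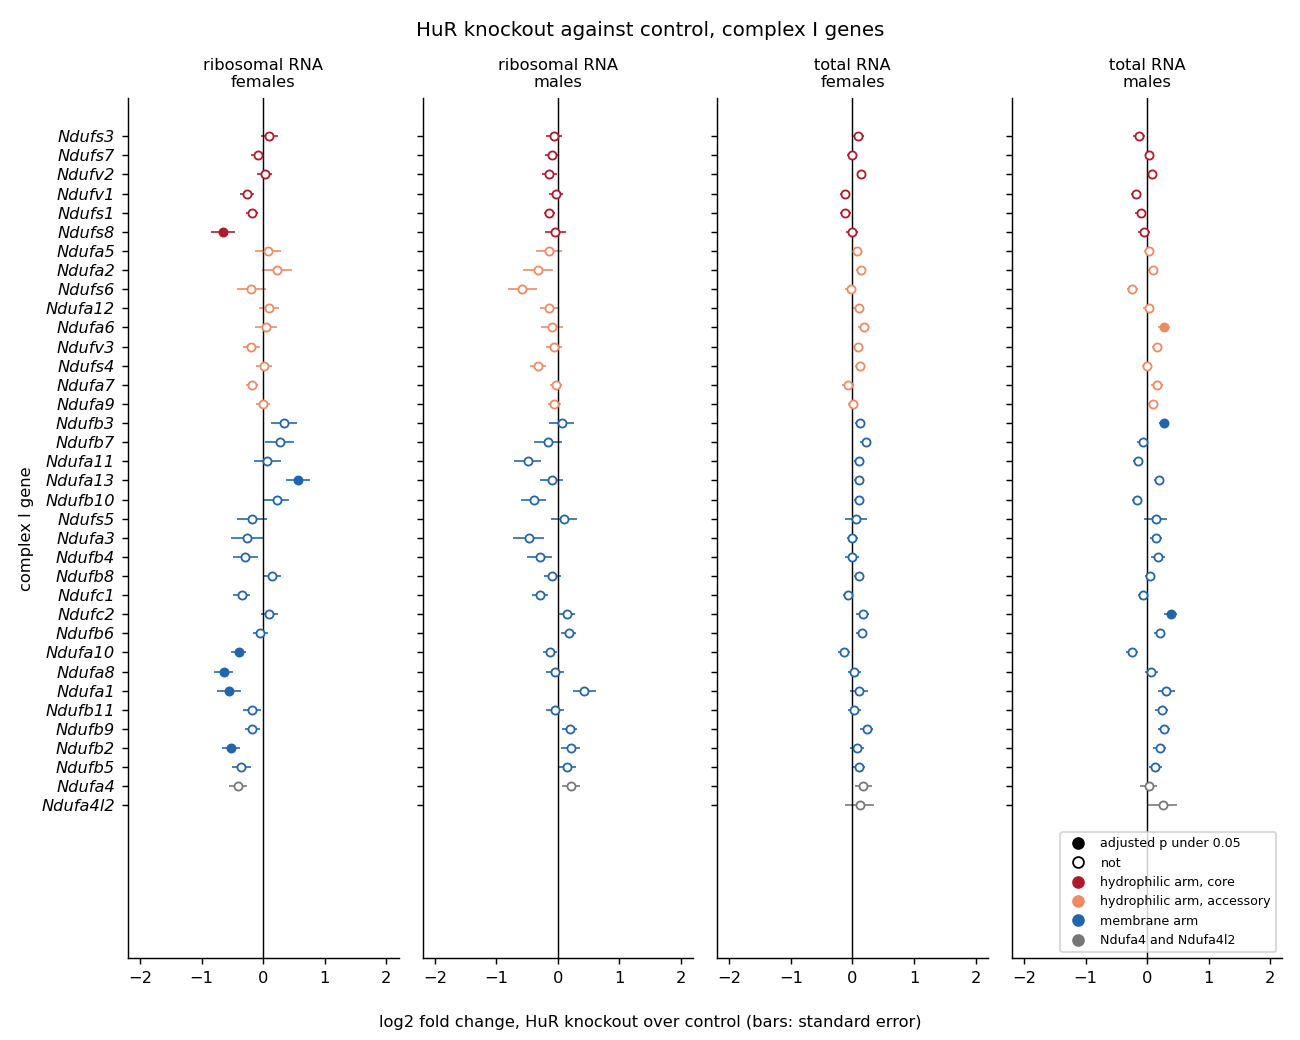
Log2 fold change of HuR knockout over control (x axis, bars are SE) for each complex I gene in ribosomal and total RNA of females and males, 7 mice a group; filled points passed an adjusted p of 0.05 and colors give the role. Ribosomal RNA of females holds 6 filled points, from −0.66 for Ndufs8 to 0.57 for Ndufa13, and total RNA of males 3, from 0.27 to 0.39.

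The change of the ribosomal-to-total ratio between knockout and control was tested on all 56 libraries, and it uses the same libraries as the comparisons above. In females Ndufa8 (−0.75, SE 0.195, adjusted p = 0.0201) and Ndufb2 (−0.67, SE 0.191, adjusted p = 0.0362) had a lower ratio in knockouts, where 3.46% of genes were called and 1.61% were lower. With the mouse as a replicate block Ndufa4 (−0.64, adjusted p = 0.049) and Ndufa8 (−0.72, adjusted p = 0.0424) were called and Ndufb2 was not (−0.62, adjusted p = 0.0609). Ndufa8 alone was called under RLE, under DESeq2 and without the ribosomal libraries under 0.75 M counts. In males no member was called, where 0.128% of genes were. With edgeR 4 members had an unadjusted p under 0.05, where 8.85% of genes did, and DESeq2 called no member. The values were below 0 for 31 of 36 members in each sex, with medians of −0.21 in females and −0.21 in males, against −0.01 over all genes in both; of all genes, 48.8% in females and 48.5% in males were above 0. For complexes II to V they were below 0 for 35 of 41 genes in females and 36 of 41 in males.

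Male controls were compared with female controls. In ribosomal RNA Ndufb5 of the membrane arm was higher in males, at 450.3 to 754.3 CPM (median 638.7) in males and 293.5 to 582.4 CPM (median 398.8) in females (0.56, SE 0.149, adjusted p = 0.0135). It was the only member called, where 7.63% of genes were. In total RNA Ndufb3 was lower in males, at 279.3 to 397.3 CPM in males and 406.3 to 462.4 CPM in females, with no overlap (−0.28, SE 0.0814, adjusted p = 0.0257), where 8.7% of genes were called. Ndufs4, an accessory subunit of the hydrophilic arm, did not overlap between the sexes either and was 0.19 higher in males without passing the test (adjusted p = 0.146). Groups did not overlap for 3.23% of all genes in that comparison. The same control males gave the knockout rise of Ndufb3 in total RNA described above. That rise did not pass without the libraries left out for their share of reads outside genes. The sex comparison was not run without those libraries. Slow-fibre genes were lower in males, 5 of 10 in ribosomal RNA and 7 of 10 in total RNA. Their sums were 2474 to 4109 CPM in males and 3420 to 6490 CPM in females in ribosomal RNA, and 1732 to 2735 CPM in males and 2932 to 3622 CPM in females in total RNA, where the sexes did not overlap. Their part in the members' sex differences was not tested.

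The knockout effect in ribosomal RNA differed between the sexes for Ndufa1 and Ndufb2, where 3.43% of genes were called. For Ndufa1 the effect in males minus that in females was 0.98 (SE 0.273, adjusted p = 0.0381), from an effect of 0.43 (adjusted p = 0.166) in males and −0.55 in females. Ndufa1 ranged from 405.6 to 891.3 CPM in knockout males and from 241.7 to 566.4 CPM in control males. For Ndufb2 it was 0.73 (SE 0.214, adjusted p = 0.0492), and it did not pass under RLE (0.73, adjusted p = 0.0549) or without the ribosomal libraries under 0.75 M counts (0.65, adjusted p = 0.103), where Ndufa8 was called beside Ndufa1. Ndufb2 ranged from 397.2 to 643.7 CPM in knockout males and from 333.3 to 632.8 CPM in control males. In total RNA the effect differed for none of 36 members and none of 12860 genes (0% called) with edgeR. There 3 members had an unadjusted p under 0.05, where 9.53% of genes did, and DESeq2 called no member.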

How the data were processed

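Gene counts were analysed for 56 libraries from 28 mice, a ribosomal and a total library each. Per the labels, 500 ng of RNA per sample went into Lexogen QuantSeq 3′ libraries, read forward for 50 bp. UMI-tools, STAR, HTSeq, DESeq2 1.40.1 and R 4.3.0 were used with build GRCm39, per the submitters' processing notes. The deposited values are whole counts per gene, used as deposited; 5 summary lines of HTSeq were left out, and reads that aligned to several places (14 to 23.8% per library) are in no gene, which can lower members with near-copies (Ndufs5, Ndufs6, Ndufb4, Ndufa11, Ndufa12). Overlapping genes were not separated.

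Genes were tested with edgeR 4.0.16 (R 4.3.3; filterByExpr, TMM, quasi-likelihood F-test). Ribosomal and total libraries were fitted apart, with 4 group means of 7 libraries each, and all 56 together for contrasts between RNA types. P-values were Benjamini-Hochberg adjusted over all tested genes, and calls used 0.05. CPM were scaled within each RNA type, and on a common scale of 56 libraries where ribosomal and total levels are set side by side. Deviations of log2 CPM used a prior count of 2. The code was tested on simulated data.

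Library numbers of a sex and genotype were taken as mice per the labels. Same-numbered libraries correlated by 0.154 on average in knockout females, 0.065 in control females, 0.0519 in knockout males and −0.145 in control males, over the 500 most variable genes. The labels do not say whether mice were littermates. The design text names 7 mice per sex where another label names 14. Alternatives were RLE, no filter, DESeq2 1.42.0, the compared libraries alone, the mouse as a block, and leaving out libraries; depth as a covariate and the leaving out of shallow libraries from the sex comparisons were added after seeing the data. By the rule for named genes, called members, the core subunits, Ndufa4 and Ndufa4l2 were described, and up to 3 genes of lowest p from each other list; Ndufa5, Ndufb3 and Ndufs4 where uncalled were chosen after their values were seen. One gene that matches the rule is not reported here. The members and lists were chosen with earlier results of these data known.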

Additional observations from a re-analysis of the deposited data

Results flagged for a closer look

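The results here stood out by a fixed criterion, a gap between 1 library and the rest of its group or a tested difference between groups. Of 29 groups of 7 libraries checked for a gap, 1 had one, and chance gives about 1 in 20. The summed CPM of the members in ribosomal RNA of male control 20, one of the shallow libraries, was 32660, against 18530 to 22360 in the other 6 control males. The change of the ribosomal-to-total ratio in females was −0.75 for Ndufa8 and −0.67 for Ndufb2 (log2). Ndufb2 lost this call under RLE and under DESeq2, and Ndufa8 kept it. The knockout effect in ribosomal RNA, males minus females, was 0.98 for Ndufa1 and 0.73 for Ndufb2 (log2).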

How the results depend on the processing

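Counts of called members moved by more than 1.5 times as follows. In ribosomal RNA the knockout count was 6 in females, with 2 to 8 when 1 library was left out, and 0 in males (0 in each of 14 such fits), where it became 3 without the filter on low counts and 6 with depth as a covariate. In total RNA the female count of 0 became 3 without female knockouts 5, 6 and 12, and 0 to 1 with 1 library left out (1 without female knockout 9). The male count of 3 became 1 without the filter, 0 without libraries over 19% outside genes, and 1 to 5 with 1 library left out. Lone libraries that brought it to 1 were those of male knockouts 13 and 14 and male controls 25 and 26, and those that brought it to 5 were male knockout 2 and male control 21. For the ratio change in females the count of 2 became 5 without the filter. It became 1 (Ndufa8) under RLE, under DESeq2 and without ribosomal libraries under 0.75 M counts. For males against females the ribosomal count of 1 became 3 without the filter, 3 with DESeq2 and 3 without the shallow libraries, and the total count of 1 became 0 without the filter. The sex difference of the knockout effect went to 1 member (Ndufa1) under RLE in place of 2. With the mouse as a replicate block, 33 members were called in the ribosomal-to-total comparison of knockouts and 34 in that of controls, the counts without it, 2 in the female ratio change and 0 in the male; apart from the female ratio change, it changed no call. Ndufs1 in controls changed sign, to −0.0431 under RLE and −0.0513 with DESeq2 (0.17 with TMM). In ribosomal RNA of females Ndufa1 and Ndufa13 each lost their call in 9 of 14 fits without 1 library. The causes were not tested. Among values of called members under the alternatives, 470 kept direction and call, 68 lost the call and 2 changed sign. Of the 82 calls behind this tally, 33 and 34 were ribosomal-to-total calls. The fits without 1 library were run for the knockout comparisons only, and there 94 values kept the call and 32 lost it. Shallow ribosomal libraries limit what can be seen of members at low counts.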

Other observations

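Ndufb1-ps, annotated in GENCODE M21 as a non-coding transcript and in RefSeq as the protein-coding Ndufb1, is no member by the rule. It was higher in ribosomal than in total RNA, by 0.88 (adjusted p = 1.48e-12) in knockouts and 1.06 (adjusted p = 1.59e-15) in controls. In total RNA of males it rose with the knockout, at 679.6 to 1068 CPM in knockouts and 401.7 to 783 CPM in controls (log2 fold change 0.47, SE 0.138, adjusted p = 0.0216). This rise was not checked without the total libraries left out above for their share of reads outside genes. In ribosomal RNA of males the change was 0.27 (adjusted p = 0.187).

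Ndufab1, the acyl carrier subunit that the naming rule does not match, ranged from 84.29 to 140.8 CPM in ribosomal RNA of knockout females and from 69.75 to 204.9 CPM in control females (log2 fold change −0.35, adjusted p = 0.143). Kidney transcripts reached 219.6 CPM in the ribosomal library of male knockout 1 and 1148 CPM in the total library of male knockout 6. The sums of the members in these libraries, 17110 and 13060 CPM, were the lowest of their groups. A link between the kidney transcripts and these sums was not tested.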
